A study of Mus musculus with 2 samples.

Results

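Nuclear receptors, the coregulators that bind them and the transcription factors that set hepatocyte identity were described in the liver of normal and diabetic db/db mice. The genes were chosen by name, 46 in all, and 30 of them had a row among the 8551 genes of the deposited table. The normal group was wild type male mice on a C57BL/6 background, and the diabetic group was male db/db mice, for which the labels give the same background, all 9 weeks old, fed chow and killed about 3 h into the light period. The db/db mouse carries a defective leptin receptor gene in every tissue and becomes obese and diabetic, so the comparison is of whole animals with and without leptin receptor signalling and not of an effect in liver cells alone. The leptin receptor gene, Lepr, was not analysed here and so gave no check of the labels. The methods name a pair of mouse suppliers without saying which group came from which, so that supplier and genotype cannot be told apart. They also do not state whether the RNA of several mice was pooled.

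A nuclear receptor is a transcription factor that binds DNA through zinc fingers and changes its activity when a small lipophilic ligand, such as a fatty acid, a bile acid, an oxysterol or a hormone, occupies its ligand pocket. Many of them act as heterodimers with a retinoid X receptor (RXR), recruit coactivators when activated and corepressors when not, and in liver they adjust lipid, bile acid, glucose and drug metabolism to the supply of their ligands. HNF4A, the FOXA factors and the C/EBP factors act on the same enhancers and keep the hepatocyte programme on.

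Each group was measured with 1 library of digital gene expression tags, so no difference has a replicate check. The unit, which the authors call TPM, is the tag count of a gene scaled to a fixed total of clean tags in each library. Values rise in steps of 1 tag, and the size of these steps gave 10278531 clean tags in normal and 13508232 in diabetic liver. The 30 genes held 16840 reads in normal liver and 25318 in diabetic liver, and between 11 and 5719 reads each. Log2 ratios are diabetic over normal, with 95% Clopper-Pearson intervals that take the tags as independent. These intervals cover counting error only, and not variation between animals or libraries. Tags were read after PCR with no molecular identifiers and so are not independent, and the intervals may be too narrow even for counting error. A gene is called higher or lower where it differed at least 1.5-fold and had a false discovery rate (FDR) under 0.001 by an exact binomial test of its reads (two-sided), Benjamini-Hochberg adjusted over all listed genes. This test compares the 2 libraries and not the conditions. The labelled tissue was checked on 10 hepatocyte markers, of which 8 were listed and all 8 were detected in both libraries, with summed levels of 15464 and 17439 TPM, normal first. Of these 8, 2 were called higher and 1 lower, against 22.9% and 8.19% of all listed genes. The lower one, Apob, was at 804 TPM in normal and 147 TPM in diabetic liver.

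The assay reads a short tag beside a DpnII site (GATC) near the 3′ end of a transcript. The tags nearest the 3′ end were read from GENCODE M21 transcripts of the build GRCm38, as the site and the bases that follow it, 21 bases in all. The authors' own tags were not analysed here. The tags of the 12 genes that were called higher or lower are shown, 5′ to 3′, with the DpnII site in capitals, as the bases that the annotation places at the read position. Where a gene's transcripts end in different tags, that of the longest transcript is shown, which applies to Ppara and Nr1i3, each with 2 distinct tags.
Ppara, chr15:85802642-85802662, plus strand: GATCcagatggacactgccaa
Ppard, chr17:28301223-28301243, plus strand: GATCaggtcttggggtgttcc
Pparg, chr6:115490323-115490343, plus strand: GATCtattttatgcatattgt
Nr1h2, chr7:44549986-44550006, minus strand: GATCtgggatgtgcacgagta
Nr1h4, chr10:89454708-89454728, minus strand: GATCtgggatgtgcagtgatg
Nr1i3, chr1:171217658-171217678, plus strand: GATCagctacaagaggagatg
Rxrg, chr1:167639264-167639284, plus strand: GATCacctgaacctcctcagc
Nr2f6, chr8:71374181-71374201, minus strand: GATCccctggatacatggtcc
Hnf4a, chr2:163572781-163572801, plus strand: GATCcccaaggccccaccatc
Foxa3, chr7:19013690-19013710, minus strand: GATCgcctcttttttttcctc
Cebpb, chr2:167690121-167690141, plus strand: GATCaaacgtggctgagcgcg
Creb3l3, chr10:81085054-81085074, minus strand: GATCtgaggtcccaggacctt

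A tag was found for all 30 listed genes. For 24 of them all RefSeq-matched transcripts gave 1 distinct tag. The tag lay in the 3′ UTR of 24 and wholly in the coding sequence of 3, and it ended between 19 and 1138 bases before the annotated transcript end. No tag of a listed gene was found in the transcripts of another gene on the same strand (0 of 30). Nr1h2 and Nr1h4, both receptors of the same subfamily, had the most similar pair of tags. Their first 15 bases were identical and 5 of the 21 positions differed. On the opposite strand, the tag of Nr1i3 stood in Tomm40l and the tag of Nr2f6 in Ocel1. Tomm40l had 11 and 16 reads in the normal and diabetic libraries, and Ocel1 had 54 and 100. Whether the authors counted by strand is not given in the sources used here, so reads of these overlapping genes may not be separated. The annotated RefSeq transcripts of Pparg, 3 in number, shared 1 tag, so its reads do not tell its transcripts apart.

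**Figure D1:**
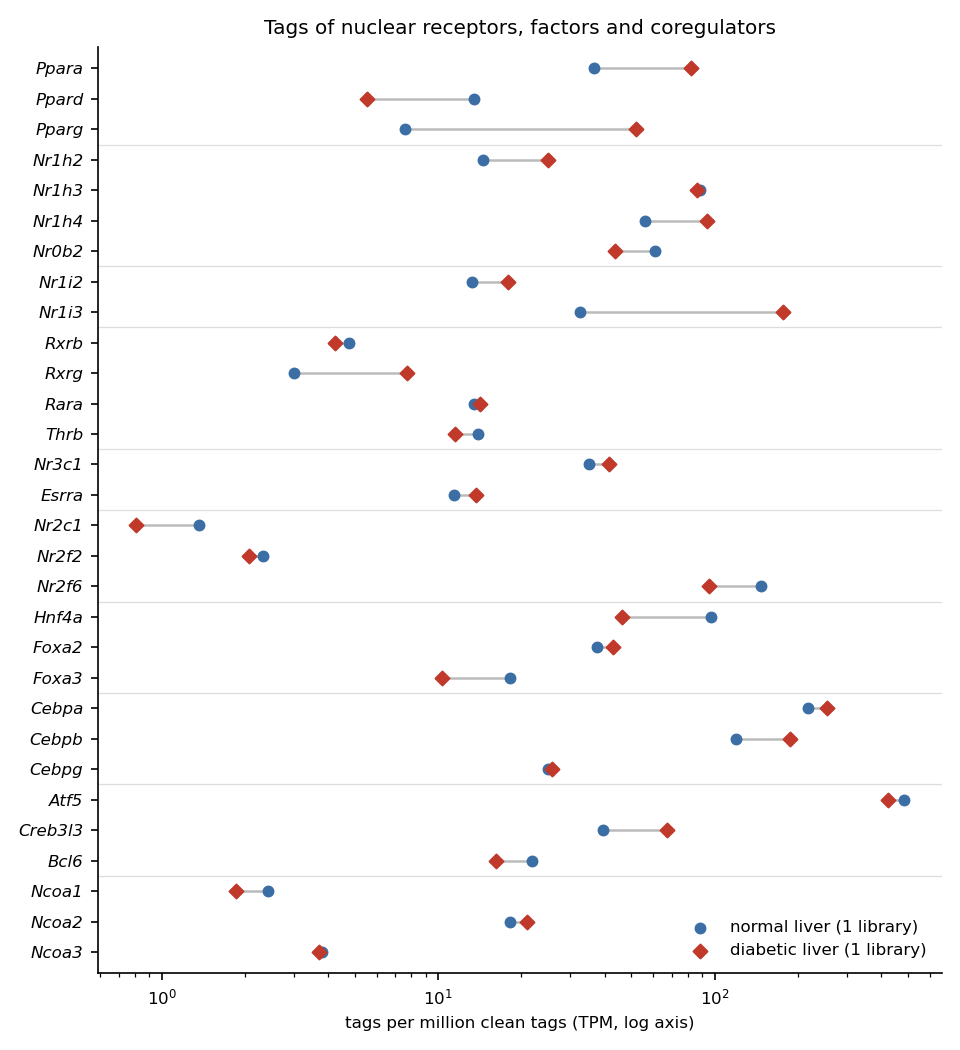
TPM (scaled tag counts) of the 30 listed genes in normal liver (circles) and the diabetic library (diamonds), on a log axis, with grey lines between groups of related genes and 1 library per group. The widest gaps are those of Pparg, from 7.59 to 51.7 TPM, and Nr1i3, from 32.5 to 176 TPM, and the diabetic value of Ppard is on the opposite side, at 5.55 against 13.5 TPM.

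Of the 30 genes, 8 were called higher and 4 lower in diabetic mouse liver. Over all listed genes 22.9% were called higher and 8.19% lower, so that the members' shares of 26.7% and 13.3% lie near the background. Higher were Ppara, Pparg, Nr1h2, Nr1h4, Nr1i3, Rxrg, Cebpb and Creb3l3. Lower were Ppard, Nr2f6, Hnf4a and Foxa3. By the fold change alone, 8 genes were at least 1.5-fold higher and 5 at least 1.5-fold lower, against 34.4% and 15.3% of all listed genes. By the FDR alone, 15 members (50%) passed, against 37.6% of all listed genes. A count test passes more readily at higher counts, and the median mean was 22.5 TPM for members and 7.76 TPM for all listed genes. Among genes averaging at least 5 TPM, 8 of 25 members were called higher and 4 lower, against 30.4% and 10.6% of all. The median log2 ratio of the members was 0.06, and that of all listed genes was 0.25. Because TPM takes the whole library as its base, each log2 ratio was recomputed under 4 other scalings, which lowered it by 0.25 to 0.31. Over all listed genes TMM scaling (trimmed mean of M values) turned 1955 higher and 700 lower calls into 1272 and 1147, and over the members 8 and 4 into 4 and 6. Under each of these scalings Pparg, Nr1i3, Rxrg and Ppara were still called higher, while Nr1h2, Nr1h4, Cebpb and Creb3l3 were under 1.5-fold. All 4 lower genes stayed called, which follows for the fold criterion from the direction of the shift. With an assumed variation between samples of 20% added to the counting error, Pparg and Nr1i3 stayed called and the other 10 did not, among them Ppara, Rxrg, Ppard, Hnf4a, Foxa3 and Nr2f6.

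**Figure D2:**
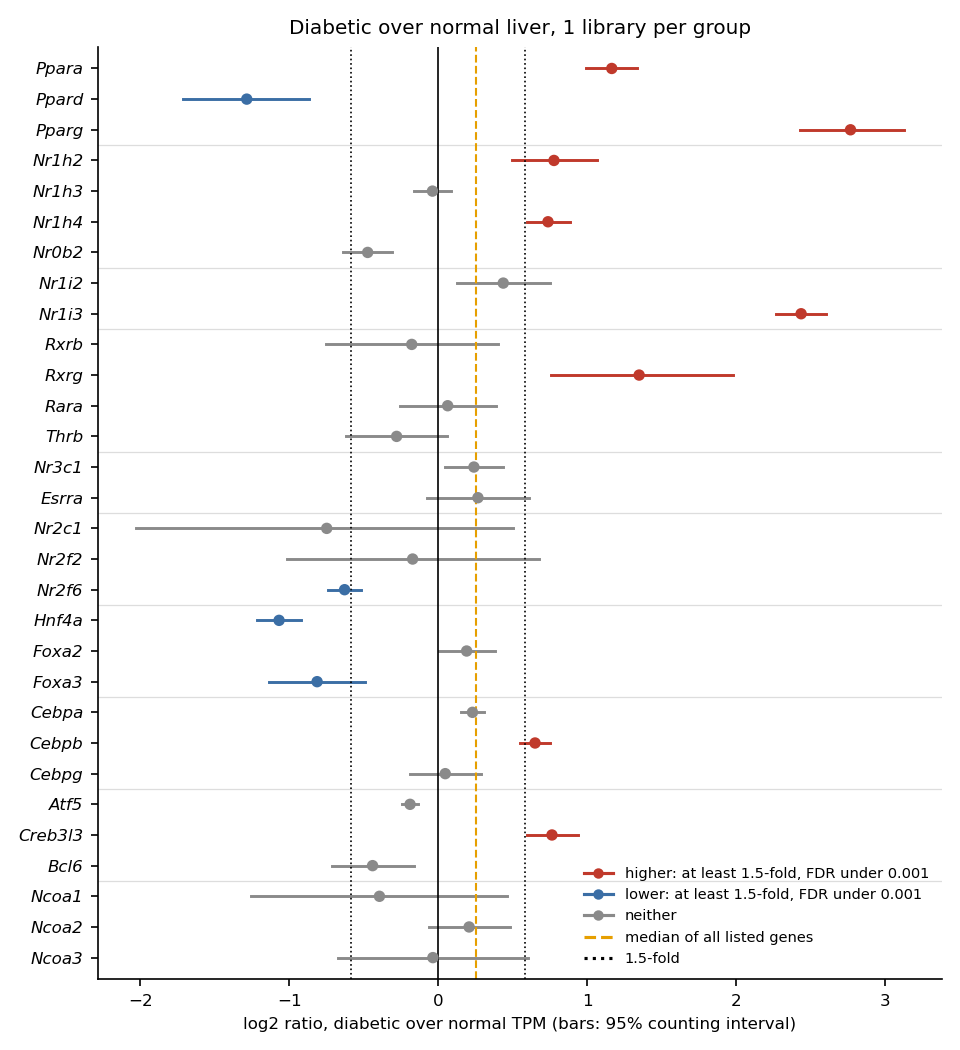
Log2 ratio of diabetic over normal TPM for each of the 30 genes, with bars for the 95% counting interval, colours for the call, dotted lines at 1.5-fold and a dashed line at the median of all listed genes (0.25). Pparg (2.77) and Nr1i3 (2.44) lie farthest to the right, Ppard (-1.28) and Hnf4a (-1.07) farthest to the left, and the widest bar is that of Nr2c1, with 14 and 11 reads.

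In whole liver, fewer cells of a type and less RNA per cell cannot be told apart, and some of these genes are also used by macrophages, endothelial and stellate cells. Of 10 listed macrophage markers, 5 were called lower and 1 higher. Their sum went from 351 TPM in normal liver to 206 TPM in diabetic liver. C1qa alone went from 176 to 50.7 TPM, and C1qb, the 1 higher marker, from 38.1 to 57.8 TPM. Under TMM scaling 6 of the 10 macrophage markers were lower and 0 higher. Of 12 endothelial markers 3 were called lower and 1 higher (173 and 148 TPM in sum), and of 10 stellate cell markers 1 lower and 1 higher (202 and 258 TPM). Of 3 cholangiocyte markers 1 was called higher and 0 lower (61.5 and 107 TPM), with Spp1 alone at 57.2 and 103 TPM. Of 3 B cell markers 1 was called higher and 0 lower (98.7 and 156 TPM), which became 0 higher and 1 lower under TMM scaling. Cd74 alone was at 93.3 and 152 TPM, so the cholangiocyte and B cell sums rest largely on 1 gene each. For T and NK cells 1 marker was listed and not called. Over all listed genes 22.9% were called higher and 8.19% lower. Every listed marker of these lists had reads in both libraries, and their part in the results was not tested.

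The PPARs are receptors of fatty acids and their derivatives. PPARα, encoded by Ppara, drives fatty acid oxidation and ketogenesis in liver, PPARγ drives fat storage in adipocytes, and PPARδ is widely expressed. Pparg (Entrez 19016) had 78 reads in normal liver and 699 in diabetic liver, or 7.59 and 51.7 TPM. It rose 6.82-fold, with a log2 ratio of 2.77 (95% interval, 2.43 to 3.13) and an exact test FDR of 1.3e-90. Only 1.64% of the listed genes had a log2 ratio as high or higher. Ppara (Entrez 19013) went from 376 to 1109 reads, or from 36.6 to 82.1 TPM. Its log2 ratio was 1.17 (95% interval, 1.00 to 1.34). Ppard (Entrez 19015) had 139 reads in normal liver and 75 in diabetic liver, or 13.5 and 5.55 TPM. It fell 2.44-fold, with a log2 ratio of -1.28 (95% interval, -1.71 to -0.87), and 4.14% of the listed genes had one as low or lower. The 3 PPAR genes thus moved in both directions.

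The ratio of 2 genes within a library does not depend on the scaling between libraries, and it was computed for related members. Of the reads of the 3 PPAR genes, Ppara held 63.4% in normal liver (95% exact binomial interval, 59.4% to 67.3%) and 58.9% in diabetic liver (56.6% to 61.1%). Pparg held 13.2% (10.5% to 16.1%) and 37.1% (34.9% to 39.3%) in the same order. The share of Ppard was 23.4% (20.1% to 27.1%) in normal liver and 3.98% (3.15% to 4.97%) in diabetic liver. There were 2.71 reads of Ppara per read of Ppard in normal liver and 14.8 in diabetic liver, a 5.46-fold difference (95% exact conditional interval, 3.99 to 7.51). Reads of Ppara per read of Pparg were 4.82 and 1.59, a diabetic over normal ratio of 0.329 (0.250 to 0.430). Tags are counted per transcript end and were not divided by gene length.

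CAR, encoded by Nr1i3, and PXR, encoded by Nr1i2, sense drugs, bile acids and steroids and switch on cytochrome P450, conjugation and transporter genes. Nr1i3 (Entrez 12355) had 334 reads in normal liver and 2378 in diabetic liver, or 32.5 and 176 TPM. It rose 5.42-fold, a log2 ratio of 2.44 (95% interval, 2.27 to 2.61). For Nr1i2 (Entrez 18171), with 136 and 242 reads, or 13.2 and 17.9 TPM, the difference was 0.44 on the log2 scale (0.13 to 0.75), which was not called at an FDR of 0.011 in the exact test. There were 0.407 reads of Nr1i2 per read of Nr1i3 in normal liver and 0.102 in diabetic liver, a diabetic over normal ratio of 0.250 (95% exact conditional interval, 0.196 to 0.320). Nr1i3 took 71.1% of the reads of the pair in normal liver (95% exact binomial interval, 66.7% to 75.1%) and 90.8% in diabetic liver (89.6% to 91.8%). Tomm40l, on the opposite strand, was listed with 11 reads in normal and 16 in diabetic liver. Whether tags of Tomm40l were counted under Nr1i3 was not tested.

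**Figure D3:**
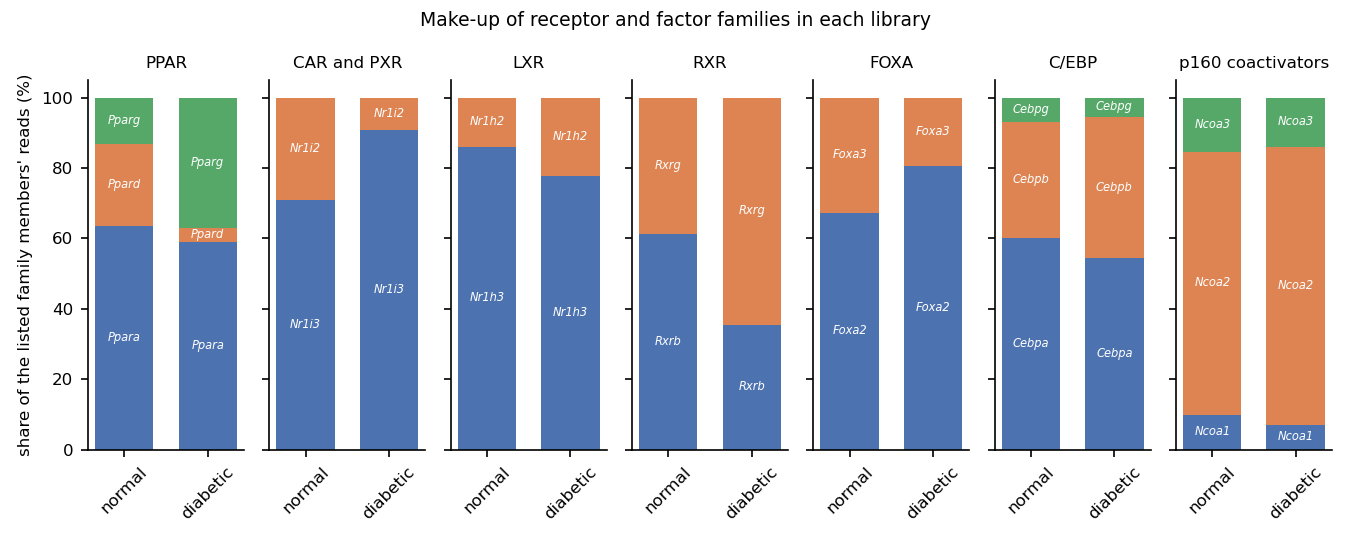
Share of each gene (coloured blocks) in the summed reads of its listed family members, in percent, for the normal and the diabetic library. The block of Pparg widens from 13.2% to 37.1% of the PPAR reads and that of Nr1i3 from 71.1% to 90.8% of the CAR and PXR reads, while the shares of the 3 p160 coactivators differ little, with Ncoa2 at 74.5% and 79.1%.

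LXRα (Nr1h3) and LXRβ (Nr1h2) respond to oxysterols and govern cholesterol export and lipogenic genes, and FXR (Nr1h4) responds to bile acids. Nr1h4 (Entrez 20186) had 577 reads in normal liver and 1265 in diabetic liver, or 56.1 and 93.7 TPM, a log2 ratio of 0.74 (95% interval, 0.60 to 0.88). Nr1h2 (Entrez 22260) had 149 and 336 reads, or 14.5 and 24.9 TPM, a log2 ratio of 0.78 (0.50 to 1.07). Both were called higher, and both were under 1.5-fold under the 4 other scalings, at 0.43 to 0.49 and 0.47 to 0.53 on the log2 scale. Nr1h3 (Entrez 22259), with 88.4 TPM in normal liver and 86.2 TPM in diabetic liver, had a log2 ratio of -0.04 (95% interval, -0.16 to 0.09), so that its interval lay within 1.5-fold in either direction. Reads of Nr1h3 per read of Nr1h2 were 6.10 in normal liver and 3.46 in diabetic liver, 1.76-fold fewer (95% exact conditional interval, 1.42 to 2.19).

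SHP, encoded by Nr0b2, is a receptor without a DNA binding domain that FXR induces and that represses bile acid synthesis. Nr0b2 (Entrez 23957) had 623 reads in normal liver and 590 in diabetic liver, or 60.6 and 43.7 TPM. At -0.47 on the log2 scale (-0.64 to -0.31) it lay within 1.5-fold, although the exact test gave an FDR of 5.6e-08. Under the 4 other scalings it was at -0.78 to -0.72 and was called lower. Nr1h4 and Nr0b2 thus lay on opposite sides. There were 0.926 reads of Nr1h4 per read of Nr0b2 in normal liver and 2.14 in diabetic liver, a 2.31-fold difference (95% exact conditional interval, 1.99 to 2.70).

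RXRs are the common partners of the receptors above and also pair with the receptors of retinoic acid (Rara) and thyroid hormone (Thrb). Rxrg (Entrez 20183) had 31 reads in normal liver and 104 in diabetic liver, or 3.02 and 7.70 TPM, and rose 2.55-fold. This is 1.35 on the log2 scale (0.76 to 1.98), with an FDR of 4.7e-06 in the exact test. Rxrb (Entrez 20182) had 49 and 57 reads, or 4.77 and 4.22 TPM, and its log2 ratio of -0.18 carried an interval from -0.75 to 0.41. There were 0.633 reads of Rxrg per read of Rxrb in normal liver and 1.82 in diabetic liver, a 2.87-fold difference (95% exact conditional interval, 1.60 to 5.22). Rxra was not analysed here. Rara had a log2 ratio of 0.06 (95% interval, -0.26 to 0.39) from 139 and 191 reads, and Thrb one of -0.28 (-0.62 to 0.06) from 143 and 155 reads. Neither was called.

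The glucocorticoid receptor gene Nr3c1 (Entrez 14815) was at 35.0 TPM in normal liver and 41.4 TPM in diabetic liver, a log2 ratio of 0.24 (95% interval, 0.05 to 0.44, exact test FDR 0.027), near the median of all listed genes. Esrra (Entrez 26379), the oestrogen-related receptor that acts with PGC-1 coactivators on mitochondrial genes, had 117 and 185 reads and a log2 ratio of 0.27 (95% interval, -0.07 to 0.61). Among the orphan receptors, which lack a well established ligand, Nr2f6 (Entrez 13864) fell from 1513 to 1287 reads, or from 147 to 95.3 TPM. Its log2 ratio was -0.63 (95% interval, -0.74 to -0.52), with a lower bound of change within 1.5-fold. Nr2c1 and Nr2f2 had too few reads to place. Nr2c1 had 14 and 11 reads and a log2 ratio of -0.75 (95% interval, -2.03 to 0.50). It was the 1 gene that differed at least 1.5-fold without passing the test. The ratio of Nr2f2 was -0.17 on the log2 scale (-1.01 to 0.68) from 24 and 28 reads.

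**Figure D4:**
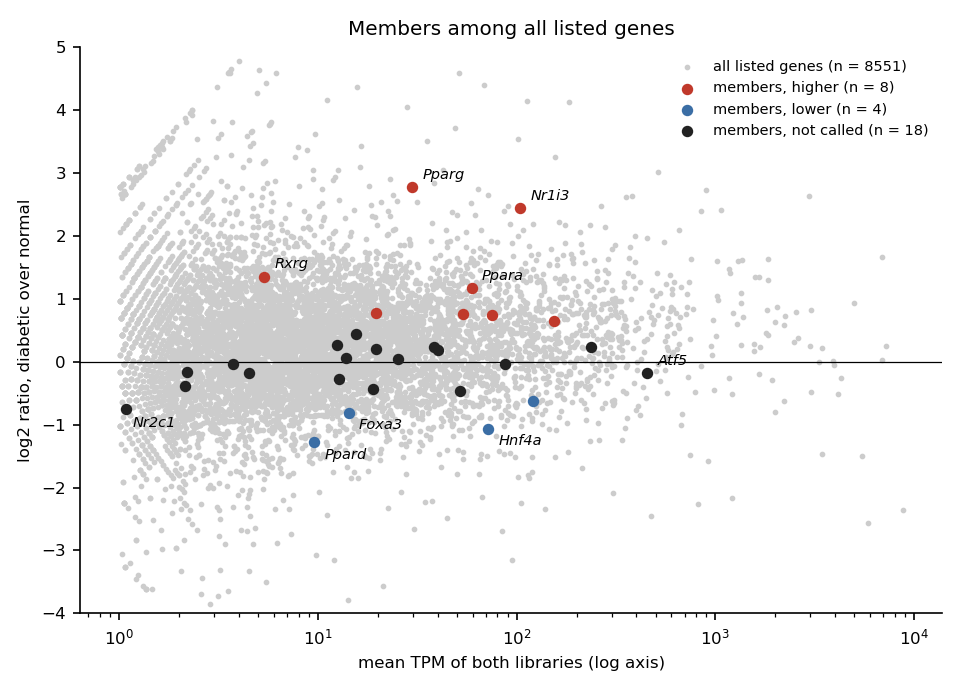
Log2 ratio of diabetic over normal TPM against mean TPM (log axis) for all 8551 listed genes (grey) and the 30 members (coloured by call), with 33 genes beyond the vertical axis. The 8 higher members include Pparg and Nr1i3 well above the bulk of the grey points, and the 18 members not called lie between -0.75 (Nr2c1) and 0.44 (Nr1i2).

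HNF4A is a receptor that is active without an added ligand and that, with the FOXA factors, is needed for the expression of many plasma protein, apolipoprotein and drug metabolism genes. Hnf4a (Entrez 15378) had 995 reads in normal liver and 624 in diabetic liver, or 96.8 and 46.2 TPM. It fell 2.10-fold, a log2 ratio of -1.07 (95% interval, -1.21 to -0.92), with 5.93% of the listed genes as low or lower. Foxa3 (Entrez 15377) had 187 and 140 reads, or 18.2 and 10.4 TPM, and fell 1.76-fold, a log2 ratio of -0.81 (95% interval, -1.14 to -0.49). Foxa2 (Entrez 15376), with 385 and 578 reads, or 37.5 and 42.8 TPM, was not called at a log2 ratio of 0.19 (95% interval, 0.00 to 0.38). Reads of Foxa3 per read of Foxa2 were 0.486 in normal liver and 0.242 in diabetic liver, 2.00-fold fewer (95% exact conditional interval, 1.54 to 2.61).

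C/EBP factors are leucine zipper proteins, of which C/EBPα maintains the metabolic functions of hepatocytes and C/EBPβ responds to hormones, fasting and inflammation. Cebpb (Entrez 12608) rose from 1230 to 2539 reads, or from 119.7 to 188 TPM. Its log2 ratio of 0.65 (95% interval, 0.55 to 0.75) was just past 1.5-fold, and 0.35 to 0.40 under the 4 other scalings. Cebpa (Entrez 12606) was at 218 and 255 TPM, a log2 ratio of 0.23 (95% interval, 0.15 to 0.31) that had an exact test FDR of 1.5e-08 but lay near the median of all listed genes. Cebpg (Entrez 12611) was at 24.9 and 25.8 TPM, a log2 ratio of 0.05 (95% interval, -0.19 to 0.29). Neither was called. Reads of Cebpa per read of Cebpb went from 1.82 to 1.36, 1.34-fold fewer (95% exact conditional interval, 1.23 to 1.46), and reads of Cebpg per read of Cebpb from 0.208 to 0.137, 1.52-fold fewer (1.27 to 1.82).

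Creb3l3 encodes CREB-H, a membrane-bound factor released by proteolysis that activates apolipoprotein and fasting genes. Creb3l3 (Entrez 208677) had 407 reads in normal liver and 909 in diabetic liver, or 39.6 and 67.3 TPM. It was called higher, with a log2 ratio of 0.76 (95% interval, 0.59 to 0.94), and was at 0.46 to 0.51 under the 4 other scalings. Atf5 (Entrez 107503), a stress-responsive factor abundant in liver, had the most reads of all members, 4957 and 5719. At 482 and 423 TPM, it lay within 1.5-fold at -0.19 on the log2 scale (-0.24 to -0.13), with an FDR of 1.2e-10 in the exact test. Bcl6 (Entrez 12053), a repressor that acts on sex-biased and lipid genes of liver, had 225 and 218 reads, or 21.9 and 16.1 TPM, and a log2 ratio of -0.44 (95% interval, -0.72 to -0.16, exact test FDR 0.0036). It was not called, and under the 4 other scalings it was at -0.75 to -0.69 and called lower.

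Coactivators of the p160 family bind activated receptors and bring in histone acetyltransferases. None of the 3 listed p160 genes was called (0 of 3). Ncoa2 had 187 and 284 reads and a log2 ratio of 0.21 (95% interval, -0.06 to 0.48). For Ncoa1, with 25 reads in each library, the log2 ratio was -0.39 (-1.25 to 0.47), and for Ncoa3, with 39 and 50 reads, it was -0.03 (-0.67 to 0.61). The interval of Ncoa1 reached past 1.5-fold lower and that of Ncoa3 past 1.5-fold in both directions, so that differences of this size were not detectable at this depth. The interval of Ncoa2 lay within 1.5-fold. Reads of Ncoa2 and of Ncoa3 per read of Ncoa1 did not differ beyond counting error, with 95% exact conditional intervals of 0.81 to 2.85 and 0.60 to 2.72 for the diabetic over the normal ratio. Of the 22 related pairs named, 12 had both genes listed, and the interval excluded 1 for 9 of them. Some genes stand in more than 1 pair. No share over other gene pairs was computed, so this count is not shown to be particular to related genes. The remaining pair whose interval included 1 was Nr2f2 and Nr2f6, with 0.76 to 2.49.

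**Figure D5:**
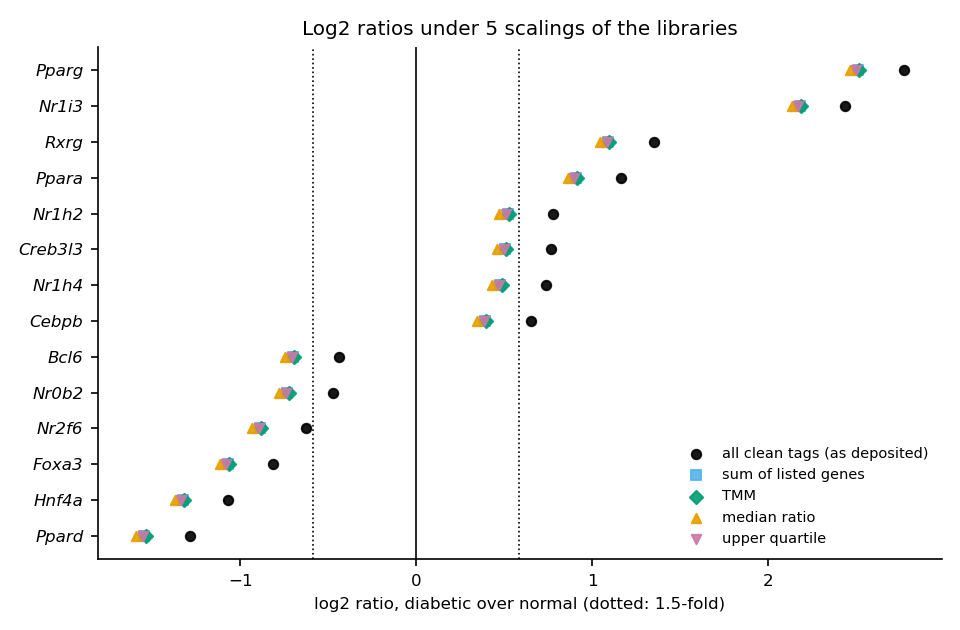
Log2 ratios of the 12 called genes and of Bcl6 and Nr0b2 under the deposited values (black) and 4 other scalings of the libraries (coloured), with dotted lines at 1.5-fold. Pparg, Nr1i3, Rxrg and Ppara stay right of the 1.5-fold line, 4 genes between 0.65 and 0.78 move left of it, and Nr0b2 and Bcl6 cross the line on the left.

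The 16 names without a row were Nr5a2, Rarb, Rora, Thra, Nr3c2, Esr1, Nr2c2, Nr4a1, Foxa1, Onecut1, Prox1, Cebpd, Ppargc1a, Ppargc1b, Ncor1 and Nrip1. They were not analysed here, and they include both PGC-1 coactivator genes and both corepressor genes. The lowest mean in the table was 1.005 TPM. A DpnII tag was found in the RefSeq transcripts of all 16. It lay at a median of 502.5 bases from the annotated transcript end, against 353 bases for the 30 listed genes. For 2 of the 16 the tag also stood in another gene on the same strand, and for 2 on the opposite strand.

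The promoters of 3 genes with large differences are shown because 3′ tags cannot say from which start site a transcript came, and RefSeq gives Pparg and Hnf4a more than 1. Each line holds the 250 bases before a RefSeq start site in GRCm38.p6, 5′ to 3′ on the gene's strand. Capitals mark matches on either strand to 4 motifs. AGGTCA is the core element of nuclear receptor sites. The HNF1 element was searched as GTTAAT. For the TATA box the letters TATAAA were used, and for the GC box, which Sp factors bind, GGGCGG.
Nr1i3, chr1:171213720-171213969, plus strand: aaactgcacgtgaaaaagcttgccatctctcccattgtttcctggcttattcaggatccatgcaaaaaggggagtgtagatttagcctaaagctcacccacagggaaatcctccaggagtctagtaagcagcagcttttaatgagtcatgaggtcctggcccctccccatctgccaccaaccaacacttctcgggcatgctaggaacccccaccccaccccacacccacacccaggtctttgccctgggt
Pparg, chr6:115360894-115361143, plus strand: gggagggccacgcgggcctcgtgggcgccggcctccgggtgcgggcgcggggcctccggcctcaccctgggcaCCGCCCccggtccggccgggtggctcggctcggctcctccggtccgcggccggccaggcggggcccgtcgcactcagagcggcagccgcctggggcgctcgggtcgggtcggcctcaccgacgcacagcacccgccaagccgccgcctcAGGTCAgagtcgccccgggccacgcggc
Pparg, chr6:115362099-115362348, plus strand: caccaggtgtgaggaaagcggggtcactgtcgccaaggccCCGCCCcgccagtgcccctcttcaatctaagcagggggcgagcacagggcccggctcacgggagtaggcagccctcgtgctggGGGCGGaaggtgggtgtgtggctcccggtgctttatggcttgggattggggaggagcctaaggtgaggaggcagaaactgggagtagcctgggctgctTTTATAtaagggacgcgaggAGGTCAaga
Pparg, chr6:115421816-115422065, plus strand: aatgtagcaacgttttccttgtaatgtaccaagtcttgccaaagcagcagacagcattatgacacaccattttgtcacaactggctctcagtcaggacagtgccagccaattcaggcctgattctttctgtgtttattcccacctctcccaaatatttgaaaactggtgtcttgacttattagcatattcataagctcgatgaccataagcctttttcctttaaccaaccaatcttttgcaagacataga
Hnf4a, chr2:163506607-163506856, plus strand: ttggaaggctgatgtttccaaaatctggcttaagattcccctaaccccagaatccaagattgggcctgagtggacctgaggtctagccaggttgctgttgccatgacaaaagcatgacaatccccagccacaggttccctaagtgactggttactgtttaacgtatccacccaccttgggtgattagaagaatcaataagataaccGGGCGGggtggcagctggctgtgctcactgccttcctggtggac
Hnf4a, chr2:163546905-163547154, plus strand: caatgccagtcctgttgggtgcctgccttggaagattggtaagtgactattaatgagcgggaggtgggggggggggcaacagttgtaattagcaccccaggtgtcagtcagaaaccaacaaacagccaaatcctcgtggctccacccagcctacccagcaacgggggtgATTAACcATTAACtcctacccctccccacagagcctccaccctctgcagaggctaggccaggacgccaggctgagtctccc

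In the Nr1i3 window none of these letters was found. Of the 3 Pparg windows, the one that starts at 115360894 held 1 AGGTCA and 1 GGGCGG, the one at 115362099 held 1 AGGTCA, 1 TATAAA and 2 GGGCGG, and the window at 115421816 held no match. The Hnf4a window at 163546905 held GTTAAT 2 times and the window at 163506607 held 1 GGGCGG. Promoter windows were matched for 27 of the 30 genes, 42 windows in all. AGGTCA stood in 6 of the 42 windows, against 14.0% of the 32851 windows of all genes, and GTTAAT in 5 of 42, against 6.43%. TATAAA stood in 6 of 42, against 12.4% of all windows, and GGGCGG in 22 of 42, against 32.7%. Windows of the same gene can overlap, as some do for Rara and Nr1h3, so the windows are not separate sequences. By gene, AGGTCA stood in 5 of the 27, GTTAAT in 5, TATAAA in 6 and GGGCGG in 16. No share by gene was computed over all genes. A direct repeat of AGGTCA with 1 base between, each copy of which also counts as AGGTCA, was in 0 of the 42 windows and in 0.0335% of all. The median GC content was 60.8% in the members' windows and 52.4% in all windows.

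Genes known as targets of these receptors were counted from lists chosen with earlier results of these data known, so they add no independent support. Some genes stand in more than 1 list. The deposited values leave out genes under a mean of 1 TPM. A gene under 1 TPM in normal liver could thus be listed only if it was higher in diabetic liver. Over all listed genes 22.9% were called higher and 8.19% lower, or 14.9% and 13.4% under TMM scaling. Of 17 listed PPARα targets 14 were called higher and 0 lower, with a median log2 ratio of 1.45, and 12 were still higher under TMM scaling. The higher ones include genes under 1 TPM in normal liver, such as Acot2 at 0.49 TPM. Of 20 listed CAR and PXR targets, 17 were called higher and 0 lower (16 and 0 under TMM scaling), with a median of 2.26. Several of the higher ones were under 1 TPM in normal liver, such as Cyp2b10 at 0.39 TPM and Cyp2b9 with 0 reads. In all, 2 of the 20 had no read in normal liver. The direction of such genes was fixed by the filter, so the count and the median are raised by it. Of 12 listed LXR targets, 4 were called higher and 1 lower, or 3 and 2 under TMM scaling. Cyp7a1, the rate-limiting enzyme of bile acid synthesis, went from 39 to 229 reads, a log2 ratio of 2.16. Of 10 listed genes that FXR induces, 3 were called higher and 4 lower (2 and 5 under TMM scaling), and of 12 listed HNF4A targets 3 were called higher and 1 lower. Under TMM scaling the latter were 0 higher and 2 lower. Apob, the structural protein of very low density lipoprotein, was that 1 lower gene, from 8265 to 1990 reads. Of 15 listed glucocorticoid receptor targets, 8 were called higher and 2 lower, or 7 and 2 under TMM scaling. For 5 thyroid hormone receptor targets the counts were 2 higher and 0 lower (1 and 0 under TMM). For 7 targets of the oestrogen-related receptor and PGC-1 they were 4 and 0 (3 and 0 under TMM). For 4 targets of CREB-H they were 3 and 0 under both. Of the 3, Cidec was at 0.19 TPM in normal liver and was listed only through its diabetic value of 13.0 TPM. Of 2 listed genes that SHP represses, Cyp7a1 was called higher and the other was not called.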

How the data were processed

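Liver RNA of 1 normal and 1 diabetic group was profiled, with 1 library per group, and samples were grouped by their titles. The authors digested cDNA of poly(A) RNA with DpnII, compared clean tags with RefSeq and deposited RPM values (tags scaled to all clean tags of a library, called TPM), rounded to 2 decimals, with 0.01 in place of 0 and genes under a mean of 1 TPM left out. The submitters' processing notes name the build mm9. The aligner is not given in the sources used here. Unused columns of values per sample numbered 0.

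The steps of the values gave whole reads, with a tolerance of 0.011 TPM. Of the values above the placeholder, 8513 of 8513 in normal liver and 8536 of 8537 in diabetic liver were whole reads. The fold and FDR thresholds follow the study. A gene at 3 reads or fewer is set to 3 reads for its ratio, which touched none of the members (0). Pair ratios are conditional odds ratios with exact intervals. Members, lists and pairs were chosen with earlier results of these data known. Every member with a row is named, and from each other list at most the 2 called genes with the largest change in each direction. Tags came from RefSeq-matched GENCODE M21 transcripts, the longest where they differed, and promoters from RefSeq. A RefSeq-matched transcript was found for all 30 genes. Alternatives were 4 scalings (sum of the listed genes, TMM with trims of 30% and 5%, median ratio over genes averaging 10 TPM or more, and upper quartile), a 2-fold threshold, only genes averaging 5 TPM or more, pseudocounts of 0.1 and 1 TPM, the Audic-Claverie test, an assumed variation between samples of 20% and a 99% interval. The computation was tested on simulated reads. Software was scipy 1.17.1 and numpy 2.4.6 under Python 3.11.15, with matplotlib 3.10.9 for plots and pandas 2.3.3 for tables.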

Additional observations from a re-analysis of the deposited data

How the results depend on the processing

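Members called higher, and members at least 1.5-fold higher, were 8 as deposited and 4 under each of the 4 other scalings. Members at least 1.5-fold lower went from 5 to 8 under each, and members called lower from 4 to 6. Over all listed genes, 13.3% to 14.9% were called higher and 13.4% to 14.7% lower under these scalings, against 22.9% and 8.19% as deposited. The median log2 ratio of the members, 0.06 as deposited, was -0.20 with the summed listed genes as base, -0.20 under TMM, -0.25 under median-ratio and -0.21 under upper-quartile scaling, and 0.21 for members averaging 5 TPM or more. The medians of all genes under the same settings were -0.0064, 0.00078, -0.052, -0.015 and 0.27. A scaling subtracts the same amount from every log2 ratio, so both medians move together by construction. The members' median was below that of all genes under each of these settings. In the same order of scalings, log2 ratios that changed sign were those of Rara (-0.19, -0.19, -0.24 and -0.20), Nr3c1 (-0.019, -0.012, -0.065 and -0.027), Foxa2 (-0.068, -0.060, -0.11 and -0.076), Cebpa (-0.028, -0.021, -0.074 and -0.037), Cebpg (-0.21, -0.20, -0.26 and -0.22) and Ncoa2 (-0.051, -0.044, -0.097 and -0.060). Esrra changed sign under median-ratio (-0.038) and upper-quartile scaling (-0.00054). These 7 genes were not called under any scaling. With a 2-fold threshold 4 members were called higher and 2 lower, and over all genes 14.5% and 4.53%. With an assumed variation between samples of 20%, 2 were called higher (Pparg and Nr1i3) and 0 lower, and over all genes 1.98% and 0.737%. The other 10 calls were lost, those of Ppara, Rxrg, Nr1h2, Nr1h4, Cebpb, Creb3l3, Ppard, Hnf4a, Foxa3 and Nr2f6, more than under any scaling. The Audic-Claverie test gave 8 higher and 4 lower, and over all genes 22.5% and 8.23%. With a 99% interval 9 pairs excluded 1, and so did 8 of the 8 pairs with means of at least 5 TPM. No share over other gene pairs was computed beside these counts. No paired analysis was possible because each group has 1 library. Depth limits genes such as Nr2c1, Nr2f2, Ncoa1 and Ncoa3, with 11 to 50 reads in a library.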

Other observations

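Other genes of the same kinds were counted from lists chosen with earlier results known. Over all listed genes 22.9% were called higher and 8.19% lower. Of 6 listed nuclear receptors that are no members, 3 were called higher and 0 lower. Esr2, an oestrogen receptor, went from 24 to 111 reads, a log2 ratio of 1.82 (1.17 to 2.52, 95% interval), and Nr1d1, the clock repressor REV-ERBα, from 135 to 520 reads, a log2 ratio of 1.55 (1.28 to 1.84). Of 16 listed coregulators that are no members, 2 were called higher and 1 lower, or 1 and 3 under TMM scaling. Med1, the Mediator subunit that binds nuclear receptors, rose from 32 to 184 reads, a log2 ratio of 2.13 (1.58 to 2.72), and Prmt1, an arginine methyltransferase, fell from 83 to 58 reads.

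Of 32 listed liver transcription factors that are no members, 5 were called higher and 4 lower, or 4 and 6 under TMM scaling. Dbp, a clock-driven factor, had 0 reads in normal and 191 in diabetic liver. Its ratio, 48.4-fold higher, was computed with the 0 reads set to 3 and is not a lower bound. Dbp was listed only through its diabetic value of 14.1 TPM, so its direction was fixed by the filter. The related Tef went from 96 to 730 reads. Xbp1, a factor of the secretory pathway, fell from 2201 to 1366 reads, a log2 ratio of -1.08, and Hhex, a factor of liver development, from 815 to 547 reads, a log2 ratio of -0.97.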
